A study of Drosophila melanogaster with 3 samples.

Results

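The peaks described here are the HmgD peaks whose summit lay just inside the transcription unit, at or shortly after an annotated transcription start site (TSS). They were chosen by position alone, as peaks of the reproducible list whose summit was 0 to 500 bp downstream, on the gene's strand, of the nearest TSS of any transcript. Summits within 500 bp of both starts of a divergent protein-coding pair were left out, a divergent pair being genes transcribed away from each other with starts at most 1000 bp apart. The rule kept 410 of 2964 peaks (13.8%), which lay at the promoters of 397 genes. They are called downstream peaks below. The same list held 1028 peaks 1 to 500 bp upstream of a single promoter, 668 between divergent pairs and 858 farther from any TSS. The 410 were thus 28.5% of the 1438 peaks at single promoters and 19.5% of the 2106 peaks at promoters of any kind. The latter share was 20.6% without replicate 1, 14.3% without replicate 2 and 12.2% without replicate 3. It was 14.1% when all 3 replicates had to place the summit on the same side of the TSS. That rule kept 244 downstream and 816 upstream peaks, while all 668 peaks between divergent pairs stayed in the total.

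HmgD is a small, abundant high-mobility-group (HMG) box protein of Drosophila that binds the minor groove of DNA and bends it, with little preference for sequence. It is a relative of the vertebrate HMGB proteins and is rich in the chromatin of early embryos. The stretch after a TSS holds core promoter elements such as the initiator and the downstream promoter element, the place where RNA polymerase II often pauses, and the first nucleosome of the transcribed region. In flies, many housekeeping promoters carry TATCGATA, the element (DRE) that the factor Dref binds, or the core promoter word GGTCACAC, known as Motif 1, while the shorter word CGATA is bound by the insulator protein BEAF.

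The material was chromatin of whole embryos of both sexes, collected over the first 0 to 24 h, from a single transgenic fly line in which HmgD carries green fluorescent protein at its C terminus. All 3 biological replicates belong to this 1 group, and no untagged, untreated or second genotype was compared. Chromatin was sheared by sonication to 200 to 800 bp and immunoprecipitated with an antibody against the tag. Cells of all embryonic stages and tissues were mixed, so a site bound in few cells and a site bound weakly in many cannot be told apart. The sources used here do not name the promoter that drives the tagged protein or say whether the endogenous protein was also present.

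The list passing the irreproducible discovery rate (IDR) step held the 2964 strongest of 30000 candidates called on the pooled replicates, with a lowest kept signal of 114.7. Separate candidate lists of 28193, 30000 and 30000 entries gave the values in replicates 1, 2 and 3. The signal is the authors' own value per peak, on a scale that differs between lists, so replicates were compared by the percentile of a peak's rank in each list (100 is the strongest). The lists hold no read counts and the depth of each replicate is unknown. The replicates differed in base composition. The 2964 strongest candidates of the 3 replicates had median GC contents of 39.3%, 42.3% and 45.3% within 100 bp of the summit in replicates 1, 2 and 3, and results that follow this difference are given per replicate.

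Example sequences from these promoters are shown first. The TATCGATA word stood close to the TSS at 3 of the downstream peaks of highest signal that hold it and can be shown here, namely alph, a phosphatase gene of the Ras pathway, Wdr62, which encodes a spindle and centrosome protein, and aux, which encodes the clathrin uncoating factor auxilin. Each line gives 30 bases of the Release 6 (dm6) assembly read 5′ to 3′ on the strand of the gene, with the word in capitals.
alph, chr3R:29591777-29591806, plus strand, 54 to 25 bp upstream of the TSS: ccttcggttgcTATCGATAgccaatagctc
Wdr62, chr2L:1884614-1884643, plus strand, from 8 bp upstream to 21 bp downstream: taattcgattcTATCGATAtcgatttgcag
aux, chr3R:4220894-4220923, plus strand, 92 to 63 bp upstream: ccagcgtcaaaTATCGATAagagcacagcg

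Motif 1 is shown at Wdr62, at glec, which encodes the carbohydrate-binding protein gliolectin, and at Kdm5, which encodes a histone H3 lysine demethylase. At Kdm5 the word lay inside the transcribed stretch. The capitals mark GGTCACAC.
Wdr62, chr2L:1884587-1884616, plus strand, 35 to 6 bp upstream of the TSS: gtcacccctctGGTCACACtgaacacataa
glec, chr3R:21856296-21856325, minus strand, 59 to 30 bp upstream: cgggagcaactGGTCACACtgcgccatata
Kdm5, chr2L:5999451-5999480, minus strand, 21 to 50 bp downstream: cttcgacgacgGGTCACACtggacacatgt

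GACGTG, a frequent form of the downstream promoter element, is shown where it starts 20 to 40 bp downstream of the TSS, the window counted below. The examples are nkd, an inhibitor of Wnt signalling, and Lsd-2, which encodes a lipid droplet protein. Lsd-2 carries the word at 2 places. The capitals mark GACGTG in the bases 16 to 45 downstream of the TSS.
nkd, chr3L:19045404-19045433, minus strand: ccgttgattcgaaaaGACGTGtgaactgag
Lsd-2, chrX:15076175-15076204, minus strand: tcccaacgagcaGACGTGagcaGACGTGcc

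Summits outside untranslated exons of coding genes are shown over 101 bases centred on the summit, to set side by side strong sites with and without CGATA. The noncoding gene lncRNA:CR31840 had the highest signal of all downstream peaks and no CGATA in its window. The window of lncRNA:CR44619 holds CGATA at 2 places on the opposite strand, marked in capitals as TATCG, and that of lncRNA:CR45297 holds runs of CA, marked in capitals.
lncRNA:CR31840, chr2L:14024025-14024125, minus strand: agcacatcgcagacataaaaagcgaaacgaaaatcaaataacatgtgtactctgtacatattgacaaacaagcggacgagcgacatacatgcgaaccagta
lncRNA:CR44619, chrX:12752316-12752416, plus strand: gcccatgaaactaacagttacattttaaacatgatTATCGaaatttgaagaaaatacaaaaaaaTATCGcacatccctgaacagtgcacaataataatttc
lncRNA:CR45297, chr2L:4811781-4811881, minus strand: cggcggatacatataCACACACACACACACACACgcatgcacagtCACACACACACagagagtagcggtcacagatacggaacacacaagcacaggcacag

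Downstream summits crowded against the TSS. The median offset was 57 bp, with quartiles of 21 and 166 bp, and 58 of 410 summits were within 10 bp of the start and 102 within 20 bp. In bins chosen after seeing the data, 188 summits (45.9%) lay at 0 to 49 bp, 107 (26.1%) at 50 to 149 bp and 115 (28.0%) at 150 to 500 bp, and 61 lay beyond 250 bp. The distribution ran on without a gap into that of the upstream peaks, whose median offset was -83 bp. At the inner edge of the window, summits exactly on the TSS belonged to yps, which encodes a Y-box RNA-binding protein (signal 329), Gnpat, an acyltransferase gene of ether lipid synthesis (205), and CkIalpha, a casein kinase gene of the Wnt and Hedgehog pathways (175). Summits 1 bp on the other side belonged to Tango5 (221), Nulp1 (169) and Usp1, which encodes a deubiquitinating enzyme (149). At the outer edge, lncRNA:CR44619 and CG5065 lay at 499 bp and lncRNA:CR45899 at 497 bp, while Dora (501 bp), Pitslre, a cyclin-dependent kinase gene (503 bp), and CG10376 (505 bp) fell outside.

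**Figure D1:**
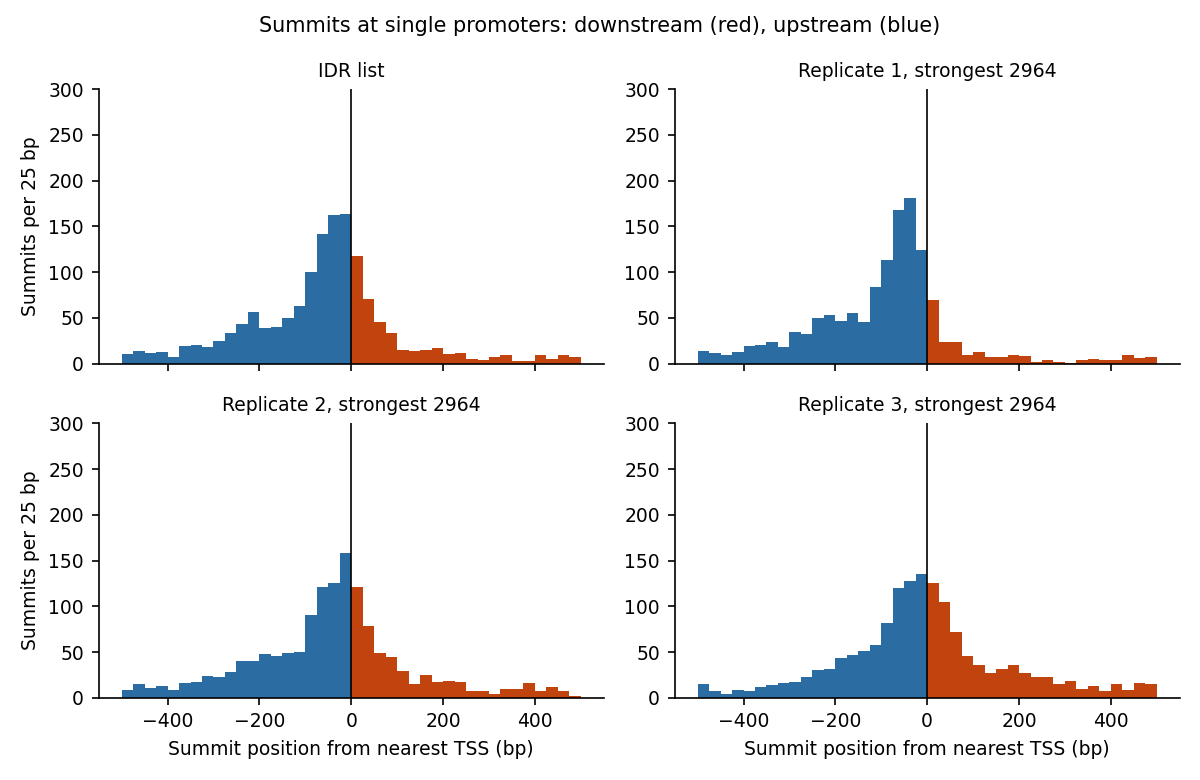
Number of summits per 25 bp (y axis) by position from the nearest TSS in bp (x axis, negative is upstream) at single promoters, for the IDR list and for the 2964 strongest candidates of each replicate. Red bars are downstream summits, 410 in the IDR list and 216, 500 and 672 in replicates 1, 2 and 3, and blue bars are upstream summits; both run up to the TSS without a gap.

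The strongest downstream peaks mixed noncoding RNA genes with coding genes of varied function. lncRNA:CR31840 (2L, signal 698, 24 bp from the TSS) ranked 23 in the list and at percentiles 99.53, 99.95 and 99.97 in replicates 1, 2 and 3. It was followed by the glutathione S-transferase gene GstE13 (2R, signal 665, 47 bp), which stood at percentile 99.9 in each replicate. The next were asRNA:CR45928 (2R, signal 646, 66 bp), whose summit also lay within the gene ytr, and lncRNA:CR44619 (X, signal 628, 499 bp). tank had a summit in its first intron (2L, signal 513, 160 bp), and CG2811 one almost on the TSS (2R, signal 418, 6 bp). CG18011 (2R, signal 341, 20 bp), lncRNA:CR44149 (2L, signal 329, 167 bp), yps (3L, signal 329) and rno, which encodes a nuclear PHD-finger protein acting against epidermal growth factor receptor signalling (3L, signal 306, 451 bp, in an intron), completed the 10 strongest. Of these 10, lncRNA:CR44149 had no matched candidate in replicate 1, and the other 9 were at percentile 97.4 or higher in all 3 replicates.

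As a class, downstream peaks were weaker than upstream ones. Signals ran from 114.9 to 698, with a median of 143 against 164 upstream, and the median rank percentile within the IDR list was 36.9 against 54.4. Only 6 downstream peaks were among the 100 strongest of the list, against 37 upstream, and 152 (37.1%) were among its 1482 strongest, against 563 (54.8%) upstream. The difference of the median percentiles was -17.5, and among the strongest candidates of each replicate it was -13.2 ± 3.92 (SD, n = 3). It was negative in all 3 replicates, with p = 0.25 by a two-sided exact sign-flip permutation test over replicates, which is the smallest p that 3 replicates allow. Signal differed little with distance inside the window, with medians of 147, 137 and 140 in the bins at 0 to 49, 50 to 149 and 150 to 500 bp. Peaks narrower than the common width of 404 bp made up 11 downstream peaks (2.68%), against 93 upstream (9.05%).

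Fewer candidates on the downstream side were strong enough for the list. The pooled candidates included 4369 downstream summits, of which 410 were kept, 9.38% (95% Wilson interval 8.55 to 10.3), close to the 9.88% kept among all 30000 candidates. On the upstream side 25.9% were kept, between divergent pairs 36.0%, and away from promoters 4.33%. The interval covers the sampling of peaks only, and neighbouring candidates share fragments. In the replicates' own lists the share of downstream candidates among the 2964 strongest was 7.38%, 10.996% and 13.7%, a mean of 10.7% ± 3.16 (SD, n = 3). The corresponding upstream shares were 30.2%, 24.7% and 23.7%, a mean of 26.2% ± 3.47 (SD, n = 3), and the ranges of both sides did not overlap.

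The replicates differed in how many downstream sites they ranked highly. Among the 2964 strongest candidates, replicate 1 had 216 downstream summits, replicate 2 had 500 and replicate 3 had 672, while upstream summits numbered 1115, 933 and 851. The share of downstream summits among single-promoter summits was therefore 16.2%, 34.9% and 44.1%. The order of the replicates was the same as for GC content. Splitting the summits at a GC content of 43.3%, a division chosen after seeing the data, left the order in place, with downstream shares of 11.6%, 23.9% and 27.7% among summits below it and 25.9%, 45.6% and 53.6% among the others. The summits on each side of this value were not matched for GC between the replicates, so the split does not separate GC content from the replicate. What part base composition, library preparation or sequencing had in this difference was not tested.

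The same contrast appeared at the 410 sites themselves. Their median percentile was 89.7 in replicate 1, 94.1 in replicate 2 and 95.1 in replicate 3, whereas the upstream peaks stood at 95.1, 95.1 and 94.8. Downstream peaks were among the strongest candidates in 47.3%, 71.7% and 77.3% of cases, 65.4% ± 15.9 (SD, n = 3), and upstream peaks in 79.5%, 79.3% and 70.3%. In all 3 replicates at once, 120 downstream peaks (29.3%) were among the strongest, against 47.6% of upstream peaks. Of the 367 downstream peaks with a matched candidate in every replicate, 213 (58.0%) had their lowest percentile in replicate 1, against 35.4% of upstream peaks and 24.1% of peaks between divergent pairs. Wdr62 is such a site, with percentiles of 68.2, 97.6 and 99.2, and so is Eip63E, a cyclin-dependent kinase gene, with 44.5, 89.8 and 95.1.

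**Figure D2:**
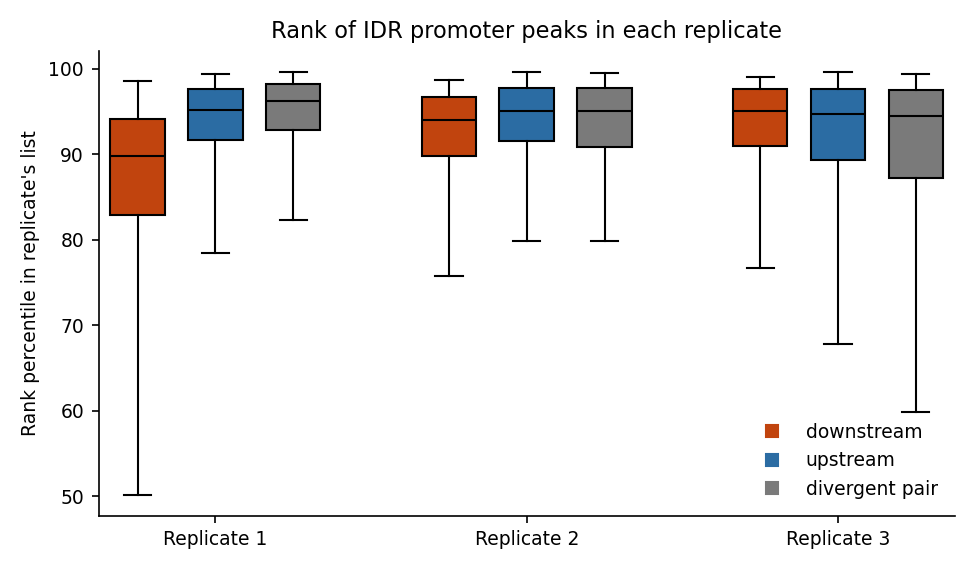
Rank percentile in each replicate's list (y axis, 100 is the strongest) of the IDR peaks at promoters, by class and replicate; boxes give quartiles, the line the median and the whiskers the 5 and 95 percentiles. The downstream median is 89.7 in replicate 1 and 94.1 and 95.1 in replicates 2 and 3, while the upstream medians lie between 94.8 and 95.1.

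A matching candidate was present in most replicates. The list held the strongest candidates of these same replicates pooled, so a match was likely in advance. Of downstream peaks 92.7%, 98.3% and 98.05% were matched in replicates 1, 2 and 3, and of upstream peaks 97.6%, 99.1% and 97.4%. A candidate was matched within 200 bp in all 3 replicates for 367 downstream peaks, in 2 for 41 and in 1 for 2, and none was without a match. The 2 matched only in replicate 3 were at Alh, which encodes a PHD-finger chromatin protein (signal 199, 203 bp), and Lk6, a kinase gene (128, 146 bp). The matched replicate summit was also downstream of the same TSS for 78.4%, 90.6% and 90.05% of peaks, a mean of 86.3% ± 6.87 (SD, n = 3). All 3 replicates placed it downstream for 248 of 367 (67.6%), against 84.9% of upstream peaks that all 3 placed upstream. In the bin at 0 to 49 bp the shares were 63.5%, 81.6% and 81.7%, and at 150 to 500 bp they were 98.02%, 97.3% and 99.1%, as a shift of a given size crosses the TSS only from nearby. The spread itself differed little with distance: the median SD of a summit's position over the 3 replicates was 27.8, 30.1 and 28.8 bp in the bins at 0 to 49, 50 to 149 and 150 to 500 bp. Over all bins it was 28.6 bp, which is larger than the offset of the 102 summits within 20 bp.

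Single genes show the range of this spread. At CG31612 the replicates put the summit 463, 464 and 463 bp from the TSS, and at CG11151 460, 459 and 460 bp. At Inx2, a gap junction gene, they gave 42, 43 and 43 bp. These positions agreed to within 1 bp. By contrast, the positions at dgt1, which encodes a subunit of the spindle complex augmin, were 160, -26 and 257 bp. At LanA, the laminin alpha chain gene, they were 27, 29 and 256 bp, and at an unnamed noncoding gene that overlaps CG5726 they were 432, 167 and 418 bp. At yps, with the pooled summit on the TSS itself, the replicates gave -37, -1 and 3 bp.

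Most downstream summits lay in 5′ untranslated exons. These held 303 summits (73.9%, 95% Wilson interval 69.4 to 77.9), at a median offset of 41 bp, and 68.8% ± 1.48 (SD, n = 3) of the downstream summits of the replicates. Introns held 39 (9.51%, interval 7.04 to 12.7) at a median offset of 390 bp, with 13.2% ± 4.23 in the replicates. Exons of noncoding genes held 33 (8.05%) and coding sequence 32 (7.80%, interval 5.58 to 10.8), the latter at a median offset of 152.5 bp and with 9.74% ± 4.56 in the replicates. Of the remaining 3, 1 lay in a 3′ untranslated exon and 2 in no annotated gene. Every intronic summit was 111 bp or farther from the TSS, and 36 of the 39 were in the bin at 150 to 500 bp. The share in introns depends directly on the window, at 3.25% with 250 bp and 25.8% with 1000 bp.

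**Figure D3:**
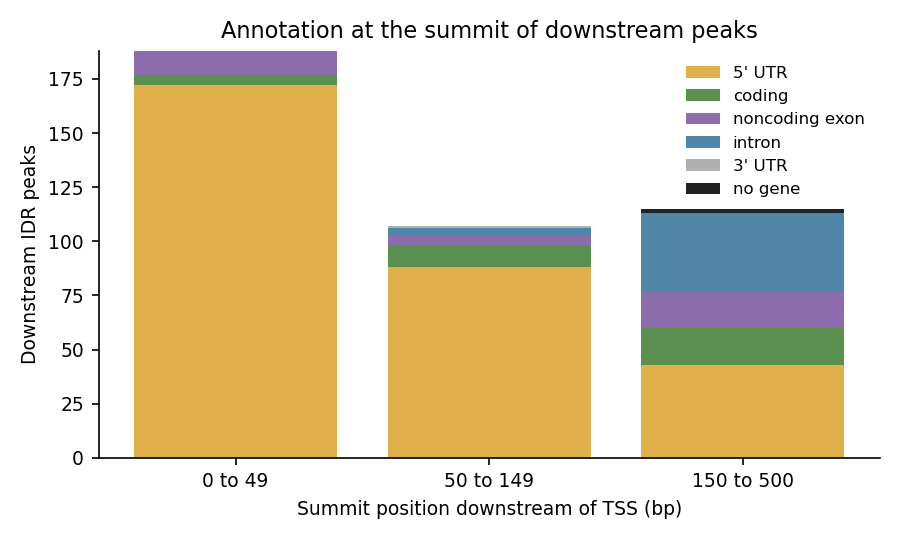
Number of downstream IDR peaks (y axis) by summit position downstream of the TSS in bp (x axis), with colours for the annotation at the summit. The bin at 0 to 49 bp holds 172 of its 188 summits in 5′ untranslated exons and none in introns, and the bin at 150 to 500 bp holds 43 in 5′ untranslated exons and 36 in introns.

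The coding and intronic sites of highest signal belonged to varied genes. In coding sequence they were AGO2, the effector of small interfering RNA silencing (3L, signal 285, 243 bp), CG14721 (3R, signal 198, 3 bp) and pst, an antiviral resistance gene (3L, signal 174, 150 bp). AGO2 stood at percentiles 97.4, 99.5 and 99.2 in replicates 1, 2 and 3, and pst at 78.9, 93.5 and 99.0. In introns, the third after tank and rno was the salt-inducible kinase gene Sik3 (2R, signal 285, 159 bp), which had a further downstream peak at 372 bp with a signal of 115. Coding summits had a median signal of 127, the lowest of these classes, against 145 in 5′ untranslated exons, 140 in introns and 159 in noncoding exons.

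TSSs with downstream peaks had longer annotated first exons than those with upstream peaks, and start codons farther away along the genome. Their first exon, for the 370 with a spliced transcript, had a median length of 292.5 bp against 233 bp at upstream peaks. Where several first exons began at a TSS, the shortest was taken. The nearest start codon lay at a median of 663 bp from the TSS, for the 371 that have one, against 412.5 bp. This distance includes introns and is not the length of the leader in the RNA. The summit lay before the end of the first exon in 311 of the 370 and past it in 59, and within 50 bp of that splice site in 41. A gene with several TSSs was nearest to 204 downstream peaks (49.8%), against 51.7% upstream, and in 47 a later TSS of the same gene lay ahead of the summit within the window. No test of these annotation features was made, since peaks are not replicates.

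Some promoters had candidates on both sides, though most candidates did not pass the IDR step. An upstream candidate at the same TSS accompanied 75 downstream peaks (18.3%), and an upstream IDR peak accompanied 22 (5.37%). Likewise, a downstream candidate accompanied 164 upstream peaks (15.95%), and a downstream IDR peak 22 (2.14%). The share of downstream peaks with an upstream candidate was 7.98% at 0 to 49 bp, 14.02% at 50 to 149 bp and 39.1% at 150 to 500 bp. The part that the peak width plays in the low share near the TSS was not tested. Usp1 is an example, with an upstream summit at -1 bp and a downstream summit at 198 bp (signal 129). A second downstream IDR peak at the same TSS was present at 13, and an opposite-strand TSS within 500 bp at 24 (5.85%). The summit also lay within another annotated gene in 48 of the 410, and which gene such a peak belongs to was not tested.

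Sequence at the summit was richer in GC than on the upstream side. The median GC content within 100 bp was 47.3% against 41.3%, a difference of 5.97 percentage points, and in the replicates the difference was 4.98 ± 0.498 (SD, n = 3), higher downstream in 3 of 3 (two-sided exact sign-flip permutation test, p = 0.25, the smallest possible). Fly promoters are asymmetric in this respect. Windows at 57 bp downstream of all 23584 annotated TSSs had a median GC of 43.3%, and windows at 83 bp upstream 39.8%. The mirror position of each downstream summit, as far upstream of the same TSS, had a median GC of 42.5%, and the mirror of each upstream summit 44.3%. Of the 222 downstream peaks at 50 bp or more, 170 (76.6%) had a higher GC at the summit than at its mirror, with a median difference of 7.96 percentage points. The mirror comparison was chosen after seeing the data.

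Words were counted on either strand within 100 bp of each summit. Of the 12, those of housekeeping promoters and the TATA box word were less frequent than on the upstream side. CGATA, which is also contained in TATCGATA, was present at 147 downstream summits (35.9%) against 44.0% upstream, with replicate differences of -11.7, -5.93 and -13.1 percentage points, -10.2 ± 3.79 (SD, n = 3). TATCGATA was present at 30 (7.32%) against 10.5%, with replicate differences averaging -4.05 ± 1.06. GGTCACAC was present at 31 (7.56%) against 9.34%, with differences averaging -3.07 ± 0.851. TATAAA, the TATA box word, was present at 40 (9.76%) against 19.2%, with differences averaging -6.56 ± 1.46. Windows of the same length centred 57 bp downstream of all annotated TSSs held CGATA in 31.2%, TATCGATA in 3.66%, GGTCACAC in 4.15% and TATAAA in 23.3%. Windows centred 83 bp upstream of all TSSs, the median position of the upstream peaks, held them in 35.02%, 5.66%, 3.99% and 31.6%, so CGATA, TATCGATA and TATAAA were also less frequent on the downstream side over all annotated promoters. All 4 differences were negative in every replicate, with p = 0.25 in the exact sign-flip permutation test.

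Other words went the opposite way. TCAGT, the initiator word, was present at 160 downstream summits (39.0%) against 31.4% upstream, with replicate differences averaging 6.77 ± 1.92 percentage points. GACGTG was present at 35 (8.54%) against 4.67%, averaging 2.78 ± 1.34. The CA repeat CACACAC was present at 72 (17.6%) against 9.92%, averaging 5.44 ± 1.85, and reached 24.3% among summits at 150 to 500 bp. In the windows 57 bp downstream of all TSSs these words were present in 41.6%, 5.37% and 6.95%, and in those 83 bp upstream in 40.8%, 3.46% and 6.40%. The CTCF core AGGTGGCGC was present at 1 downstream summit and 14 upstream. The E-box CAGCTG and the A tract AAAAAAA had differences that changed sign between replicates (exact sign-flip permutation p = 1 for each). Over the 12 words the Benjamini-Hochberg adjusted p was 0.3 for the 10 words with 1 sign in all replicates.

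**Figure D4:**
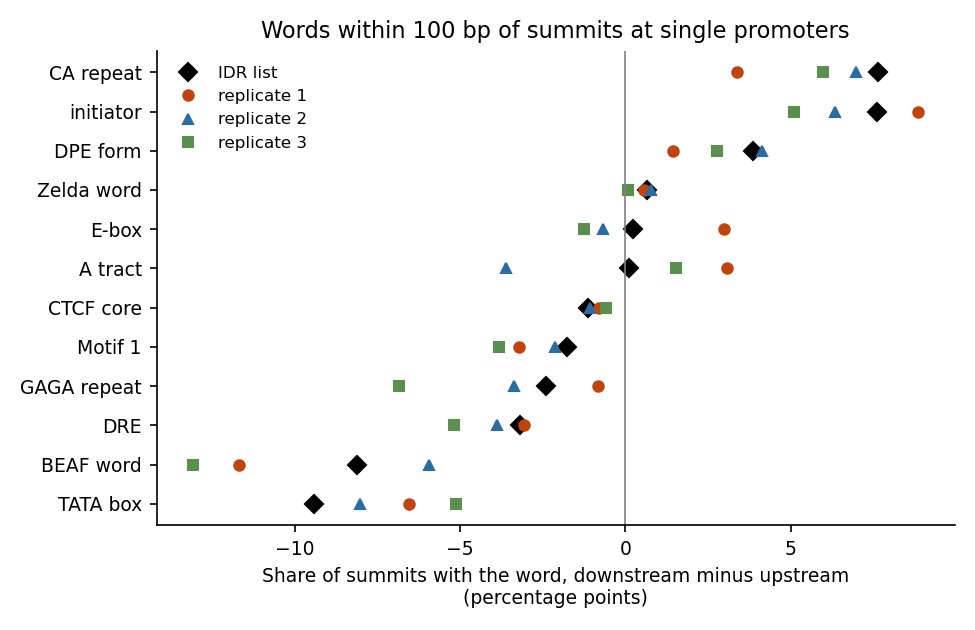
Share of summits with each word within 100 bp, downstream minus upstream peaks at single promoters, in percentage points (x axis), for the 12 words (y axis). Black diamonds are the IDR list and coloured symbols the 3 replicates; TATA box, BEAF word (CGATA), DRE (TATCGATA) and Motif 1 (GGTCACAC) lie below 0 in all 3 and the CA repeat, initiator (TCAGT) and GACGTG above 0.

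Counted at the TSS in place of the summit, 6 of these words differed by fewer percentage points between the classes. This count, added after seeing the data, used windows around the TSS that were set for each word. It compared 404 distinct TSSs with a downstream peak against 1016 with an upstream peak. These windows were shorter than those at the summit, and 3 of the words were counted on the sense strand only. Shorter windows lower the shares themselves, so the sizes of the differences in both counts cannot be compared directly. TATCGATA starting between -100 and 50 bp was present at 11.6% and 10.6%, and at 5.30% of all annotated TSSs. CGATA in the same window was present at 41.3% and 40.6%, against 30.04% of all, and GGTCACAC between -60 and 40 bp at 9.65% and 8.66%, against 4.12% of all. Among the replicates the downstream minus upstream difference of these 3 words changed sign, averaging 0.28 ± 1.82, 0.30 ± 2.80 and 0.30 ± 1.19 percentage points. TCAGT between -5 and 5 bp on the sense strand was present at 13.6% and 11.7%, and GACGTG between 20 and 40 bp at 2.72% and 3.05%, against 10.2% and 0.954% of all TSSs. TATAAA between -40 and -20 bp was present at 3.22% and 1.77%, both below the 6.10% of all TSSs, and its difference was positive in all 3 replicates, 1.30 ± 0.687 (exact sign-flip permutation p = 0.25). For every word but TATAAA the mean replicate difference was smaller than its SD over the replicates.

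**Figure D5:**
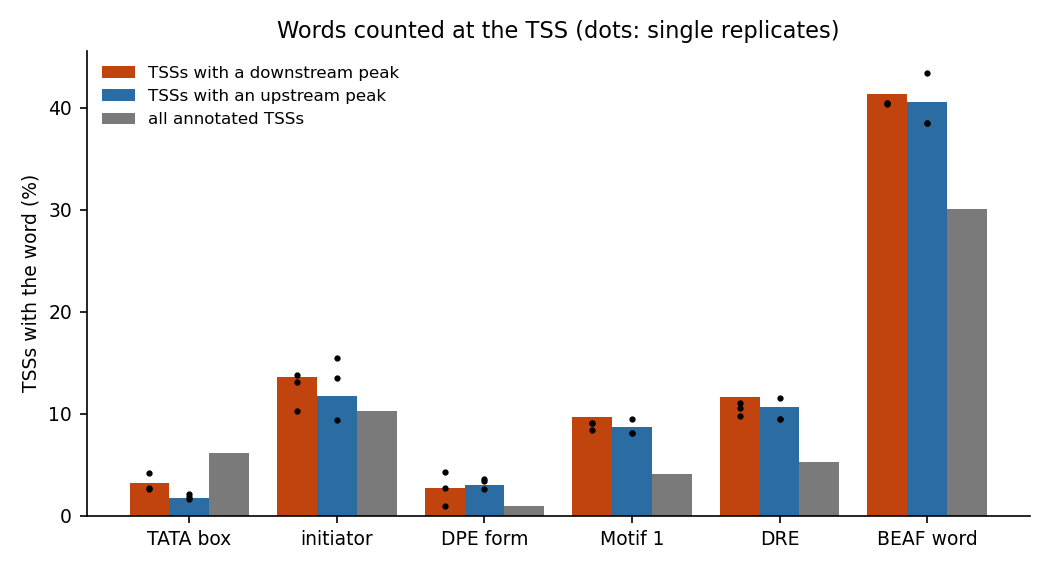
Share of TSSs with each word in its own window around the TSS, in percent (y axis), for TSSs with a downstream peak (red), with an upstream peak (blue) and all annotated TSSs (grey); bars are the IDR list and dots the replicates. TATCGATA stands at 11.6%, 10.6% and 5.30%, and TATAAA at 3.22%, 1.77% and 6.10%.

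Within the downstream class the words followed the distance. TATCGATA was present at 11.7%, 6.54% and 0.870% of summits at 0 to 49, 50 to 149 and 150 to 500 bp, and GGTCACAC at 11.7%, 7.48% and 0.870%. CGATA was present at 47.3%, 28.0% and 24.3%. The word TATCGATA itself lay at a median of 18.5 bp upstream of the TSS (position -18.5) in the 30 downstream peaks that held it, and 7 of the 30 had it downstream of the TSS. GGTCACAC lay at a median position of 2 bp, with 19 of 31 downstream. None of CGATA, TATCGATA and GGTCACAC was near 246 downstream summits (60%), against 51.1% of upstream summits. The strongest of those 246 were lncRNA:CR31840, GstE13 and CG18011. The strongest with TATCGATA were asRNA:CR45928, alph (signal 282, 3 bp) and Wdr62 (257, 15 bp), and with GGTCACAC Wdr62, glec (213, 37 bp) and arr, the Wnt coreceptor gene (182, 39 bp).

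By gene, downstream IDR peaks were at 397 of 18164 genes on the arms (2.19%), and at 358 of 13945 protein-coding genes (2.57%), while upstream peaks at single promoters were at 5.4% of all genes. Among 93 genes of cytoplasmic ribosomal proteins, 7 (7.53%) had a downstream peak and 21 (22.6%) an upstream one, and in the replicates the downstream share was 7.17% ± 1.64 (SD, n = 3). The 7 were RpS30 (signal 247), RpS15Aa (215), RpS4 (195), RpL36A (193), RpS28b (184), RpL27A (145) and RpS16 (117). Their summits lay 2 to 144 bp from the TSS with a median of 7 bp, and 6 of them were at 17 bp or less. At RpS30 the replicates placed the summit at 56, 20 and 11 bp, and at RpS15Aa at 1, 4 and -4 bp, so several of these sites lay on the TSS within the spread between replicates. Some ribosomal protein genes have close paralogues, and how the authors treated reads that map to several places is not given in the sources used here.

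Chromatin and cell cycle regulators were also present. Of 27 Polycomb and trithorax group genes 4 (14.8%) had a downstream peak and 8 (29.6%) an upstream one, with 17.3% ± 5.66 (SD, n = 3) downstream in the replicates. Over all protein-coding genes the downstream share was 2.57% and the upstream share 6.58%, so this list was above both. Trl, which encodes the GAGA factor, had a signal of 225 at 152 bp and percentiles of 98.9, 98.4 and 94.1. Psc, which encodes a subunit of Polycomb repressive complex 1, had 219 at 96 bp, and ph-p, another subunit gene, 149 at 365 bp. Su(z)2, a paralogue of Psc, had 2 peaks, each at a different TSS, with signals of 145 and 144. Of 30 replication and cell cycle genes 4 (13.3%) had a downstream peak and 6 (20%) an upstream one, with 6.67% ± 3.33 downstream in the replicates. The 4 were Dp, the partner of E2f1 (170, 424 bp, intron), CycE (134, 70 bp), stg, the Cdc25 phosphatase (121, 7 bp), and CycA (121, 23 bp). The lists hold few genes, and a difference of 1 or 2 genes changes these shares by several percentage points.

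Signalling and stress lists contributed a few members each. Of 53 translation factor genes 4 had a downstream peak, namely eIF3c (253, 19 bp), eEF2 (200.5, 1 bp), eRF1 (144, 96 bp) and eIF2D (128, 40 bp). Of 14 ecdysone response genes 2 had one, namely Eip75B, a nuclear receptor gene (293, 29 bp, percentiles 98.3, 98.9 and 99.4), and Eip63E (118, 70 bp). The segmentation and Hox list of 29 genes held ptc, the Hedgehog receptor gene (135, 22 bp), and odd, a pair-rule gene (128, 111 bp), and both had no downstream summit among the strongest candidates of replicates 1 and 2. The ligand list of 22 held Wnt5 (128, 140 bp) and vn, a ligand of the epidermal growth factor receptor (118, 24 bp). The heat shock and chaperone list of 29 held Hsp68 (117, 20 bp) and Gp93 (117, 51 bp). The insulator (21 genes), proteasome (48) and remodelling and histone chaperone (20) lists held none, and the mitochondrial ribosomal list (75) held mRpL9 (126, 20 bp), while their upstream counts were 2, 3, 2 and 3. Among the strongest candidates of replicates 1, 2 and 3 the insulator list had 0, 1 and 3 genes with a downstream summit, the proteasome list 1, 0 and 0, and the remodelling list none in any. Shares near the 2.57% of protein-coding genes say nothing particular of a list.

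The HmgD gene itself had a downstream peak, on 2R at 21713187 to 21713590, with a signal of 147.7, rank 1735 and a summit 33 bp from the start of 1 of its 3 annotated TSSs. It had no matched candidate in replicate 1, and percentiles of 97.6 and 95.2 in replicates 2 and 3, with summits at 30 and 111 bp. Whether the tagged construct adds reads here was not tested. HmgZ, the adjacent paralogue of HmgD, had its promoter peak upstream (-156 bp, signal 208). Both genes had a stronger peak outside the promoter window, HmgZ at -508 bp (signal 700.6, rank 22) and HmgD at -706 bp (signal 207, rank 736). Dsp1, another HMG-box gene, had its nearest IDR peak 785 bp upstream of the nearest TSS (position -785, signal 118), and so had no downstream peak. These positions are from the nearest annotated TSS, and the summits outside the window at HmgZ, HmgD and Dsp1 all lay in introns of annotated transcripts.

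Along the genome, 72 downstream peaks were on 2L, 94 on 2R, 80 on 3L, 110 on 3R and 54 on X, and none was on 4. X held 13.2% of downstream peaks, 18.9% of upstream peaks and 15.5% of genes. The plus strand held 198 of the peaks and the minus strand 212. In 8 of the 410 a further TSS was equally near to the summit.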

How the data were processed

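The samples were 3 biological replicates of 1 group, per the labels, and the spread between them may be partly technical. The authors deposited, per the file descriptions, candidate peaks of each replicate and of the pooled replicates and the list passing the IDR step, all in narrowPeak format on dm6. The signal of each peak, its −log10 q and its summit position are the authors' deposited values. The signal was used only to rank or describe peaks within a list, and the −log10 q not at all. The aligner, peak caller, IDR threshold and handling of multiply mapped reads are not stated in the sources at hand. The control data and the dm3 lists were not used here. The depth is unknown.

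Summits were placed against the Ensembl release 115 annotation, with sequence from the RefSeq copy of Release 6. Peaks of different lists were matched when their summits were mutually nearest and within 200 bp. Replicate values came from the 2964 strongest candidates of each replicate, classed by the same rule. Differences between downstream and upstream peaks were tested over the 3 replicates by a two-sided exact sign-flip permutation test, whose smallest p is 0.25. Wilson intervals (95%) cover the sampling of peaks only. The 15 gene lists and 12 words, like the choice of these peaks, were fixed with earlier results of these data known. Named are the 10 peaks of highest signal; the 3 highest in 5′ untranslated exons, coding sequence and introns; the 3 on each side of both window edges; the strongest of each list; the 3 highest with TATCGATA, with GGTCACAC or with neither that word nor CGATA; the 3 of largest and of smallest positional spread; 2 matched in at most 1 replicate; and HmgD, HmgZ and Dsp1. Other names fill counts of few genes or illustrate sequences and were chosen after their values were seen. Alternatives changed the window, TSS set, threshold, summit, divergent rule, matching and replicates. The scripts were tested on simulated data. The work used Python 3.11.15, numpy 2.4.6, pandas 2.3.3, scipy 1.17.1 and matplotlib 3.10.9. A result at 1 further gene is not reported here.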

Additional observations from a re-analysis of the deposited data

How the results depend on the processing

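Of 116 alternative values, 13 were counted as moved, all of them of results without a test. They moved by more than the SD between replicates or, for the number of peaks, by over 1.5 times. The 54 that carry a test were judged by direction only, and none changed direction. Some of the 54 shifted by more than the SD between replicates. The median percentile difference, for example, went from -17.5 to -3.10 without replicate 3, with an SD of 3.92. Because no p of 3 replicates can fall below 0.25, or of 2 below 0.5, these tests have no threshold to cross. The number of downstream peaks was 152 among the 1482 strongest peaks of the list and, leaving out each replicate in turn, 161 to 255. All of these counts were below the 410 of the main list whichever replicate was left out. A fall therefore does not give the share of peaks that the omitted replicate supplied. The number was 244 in the set placed on the same side by all 3 replicates, an alternative chosen after seeing the data. The count given above for matched peaks placed downstream by all 3 was 248, so the rules differed slightly. The number of downstream peaks rose to 550 with divergent pairs kept. The downstream share of promoter peaks was 12.2% to 20.6% leaving out each replicate, lowest without replicate 3. The median offset was 42 bp with a 250 bp window, 114 bp with 1000 bp, 42 to 57 bp leaving out each replicate, and 93 bp in the same-side set. The share in introns was 3.25% and 25.8% with those windows, and the share in coding sequence 2.63% among those 1482, and 4.29% without replicate 2 and 3.73% without replicate 3. Leaving out each replicate moved the median percentile difference between -23.7 and -3.10, the smallest size being without replicate 3, the CGATA difference between -10.8 and -2.27, smallest without replicate 2, and the TATCGATA difference between -3.69 and -0.81, smallest without replicate 2; the cause was not tested. In the same-side set these 3 differences were -19.2, -14.2 and -4.72, and the GC difference was 7.21. The GGTCACAC difference was -0.33 with 50 bp around the summit, -4.64 in the same-side set, -4.22 without replicate 1, -2.97 without replicate 2 and -3.40 without replicate 3. No paired analysis was possible because there is only 1 group, whose samples have no partner in another; the classes of peaks were compared within each replicate.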

Other observations

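Genes other than protein-coding ones made up 39 of the downstream peaks, with a median signal of 156 against 142 for the 371 at protein-coding genes. These 39 were a smaller part of the downstream peaks than such genes are of all 18164 genes, of which 13945 are protein-coding. Noncoding RNA genes accounted for 31 of the 39, or 7.56% of downstream peaks against 4.96% of upstream peaks. Small nuclear RNA genes, small nucleolar RNA genes, a transfer RNA gene and a pseudogene accounted for 3, 3, 1 and 1. Some of these genes are well studied, and they were chosen for mention after their values were seen. lncRNA:Hsromega, whose RNA gathers RNA-binding proteins in nuclear speckles after heat shock, had a signal of 159 at 53 bp and percentiles of 84.4, 97.1 and 98.9 in replicates 1, 2 and 3. lncRNA:roX1, an RNA of the male dosage compensation complex, had a signal of 123 at 5 bp and percentiles of 87.5, 91.8 and 88.4, with summits at -19, -16 and 12 bp. snRNA:7SKa, an RNA that holds the elongation factor P-TEFb inactive, had a signal of 140 at 242 bp and percentiles of 84.3, 94.3 and 92.6.

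The spliceosomal snRNA:U1:95Ca had a signal of 147 at 7 bp and percentiles of 85.8, 27.3 and 97.6, so 1 replicate ranked it low, and snRNA:U4:39B had 128 at 20 bp within the gene Atg18b. Genes of U1, U4 and transfer RNAs are multicopy, which makes their reads uncertain to place. Of 274 small nucleolar RNA genes 3 had a downstream peak, of 295 transfer RNA genes 1 and of 260 microRNA genes 1, mir-4962 (signal 193, 8 bp), whose summit also lay within Tlk. These shares were 1.09%, 0.34% and 0.38%, against 2.19% of all genes. For such short genes the annotated start is that of the mature or precursor RNA, and whether transcription begins there was not tested.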
